A study of Mus musculus with 2 samples.

Results

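The genes described here encode the subunits of the constitutive proteasome, together with its assembly chaperones and activators that carry the same family names. They were chosen by symbol alone, as Psma, Psmb, Psmc, Psmd or Psme followed by digits. Psmb8, Psmb9 and Psmb10, which encode the immunoproteasome subunits, were left out. The rule found 40 genes among the 20017 genes named on the array. Of these, 38 were well above background on both arrays and were measured, and the 2 others, Psma8 and Psmb11, were not.

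RNA came from microdissected glomerular regions of kidneys of male mice on the C57BL/6J background. Both groups received streptozotocin (STZ), a toxin of the insulin-producing beta cells, in 100 mmol/l citrate buffer at 8 weeks of age and were killed at 32 weeks. The mice of the WT+STZ group were wild type, and those of the TG+STZ group carry a transgene that overexpresses Sirt1, a deacetylase that uses NAD. A single one-colour Agilent array was deposited per group, so the differences have no replicate check and could not be tested. On the arrays 75.04% (WT+STZ) and 76.26% (TG+STZ) of 43020 gene spots were well above background, and 0 were saturated. No nondiabetic array was analysed here. The promoter of the transgene and the number of mice behind each array are not given in the sources used here, although the title of the series speaks of renal tubular Sirt1.

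The proteasome degrades proteins that carry ubiquitin chains. Its 20S core particle is a barrel of stacked rings, in which alpha subunits form the gated outer rings and beta subunits the inner rings with the cutting sites. The 19S regulatory particle caps the barrel. Its base holds a ring of ATPases that unfold the substrate, and its lid removes the ubiquitin. Interferon exchanges the catalytic beta subunits for immunoproteasome subunits, and podocytes, the long-lived epithelial cells of the glomerulus, depend on steady protein turnover.

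Transcripts of the core particle gave slightly higher signals in TG+STZ, and those of the regulatory particle were closer to the level of other bright genes. All 14 core genes, which are 7 alpha and 7 beta subunits, had a difference above 0 (TG+STZ minus WT+STZ, log2 of the scaled signal), with a median of 0.10. Of the 17 genes of the regulatory particle 14 lay above 0, with a median of 0.055. No gene of the 38 reached 1.5-fold either way, a size that 3.66% of the 15975 measured genes reached, and none reached 2-fold, which 0.989% reached. Of the 38, 33 lay above 0, against 50.9% of all measured genes and 70.0% of the 1965 genes whose mean signal was 10000 intensity units or more. Of the 4727 genes in the signal range of both particles, 64.5% lay above 0. Signals of all genes were therefore tilted toward TG+STZ at the bright end, where most proteasome genes lie.

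The ± values of single genes were computed from the error that the scanner software states for each spot. In log2 units they came to 0.20 with 1 probe and to 0.14 for the 10 proteasome genes with 2 probes. Of the 38 differences, 36 were no larger than this error. The same held for 12189 of the 15975 measured genes and for 1696 of the 1965 genes at 10000 units or more. The 2 proteasome genes that exceeded it were Psmb5, a catalytic subunit of the core, and Psmd10, an assembly chaperone of the base. Both have 2 probes and so the smaller error. None of these errors covers the spread between mice.

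The probe of Psme1, which encodes the alpha subunit of the PA28 activator, was spotted 10 times. Its signals ran from 8460 to 9489 units in WT+STZ and from 8788 to 9656 units in TG+STZ. The scaled difference was -0.053 ± 0.022 (SD, n = 10 spots), and all 10 spots lay below 0. The mean unscaled signal was higher in TG+STZ, at 9157 units in WT+STZ and 9320 units in TG+STZ. The mean below 0 therefore arises on scaling, by an offset that all 10 spots share. These spots were read from the same labelled RNA, so their SD is a technical one. A second guide to the error is the gap between different probes of 1 gene, which had a median of 0.077 over the 10 proteasome genes with 2 probes and a largest value of 0.18, for Psmd9. Over all 3479 genes with 2 measured probes the median gap was 0.083.

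**Figure D1:**
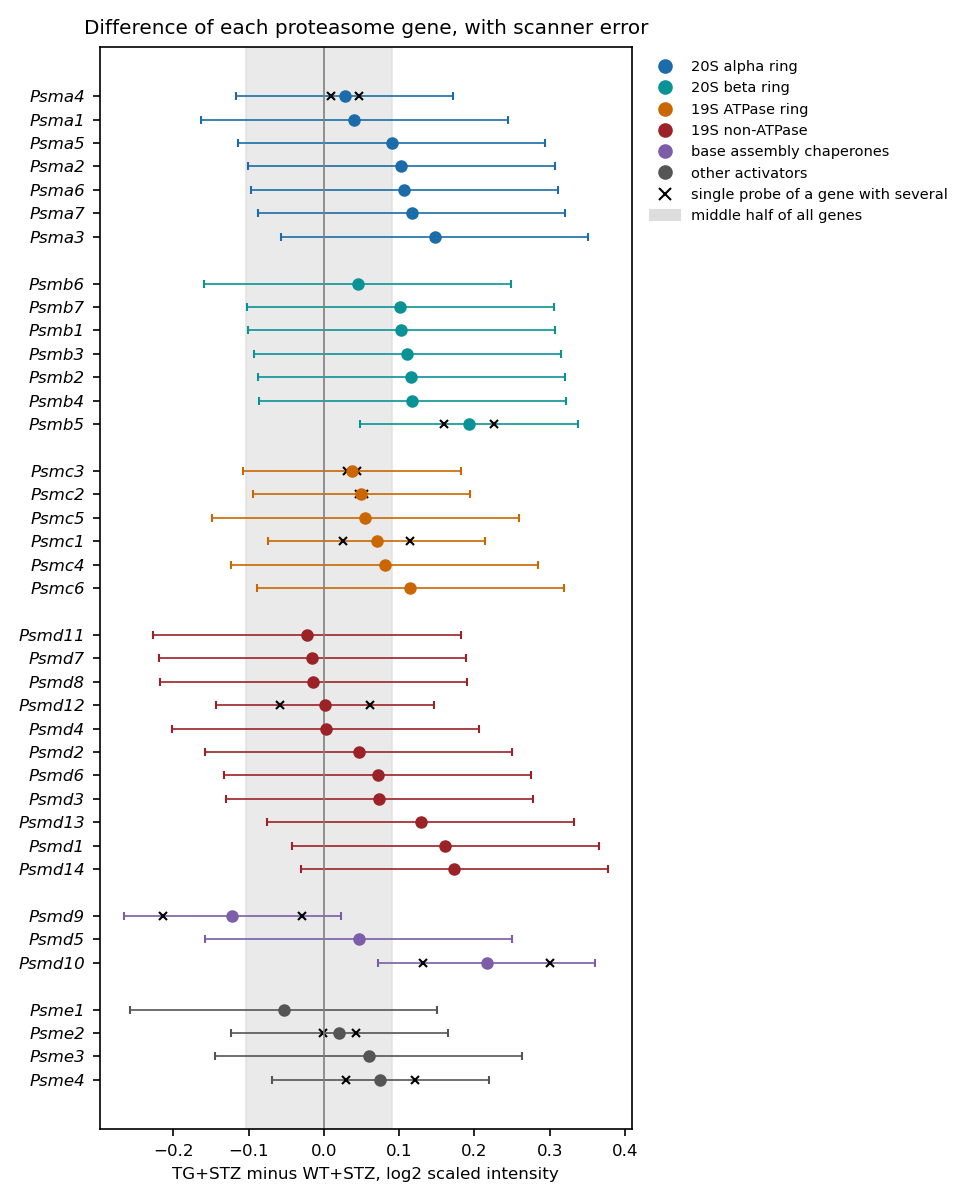
Difference of each measured proteasome gene between the arrays (TG+STZ minus WT+STZ, log2 of the scaled signal), with the scanner error as bars and single probes as crosses where a gene has 2. The grey band spans the quartiles of all genes, -0.10 to 0.090. All 14 core genes lie to the right of 0, while Psmd11, Psmd7, Psmd8, Psme1 and Psmd9 lie to the left.

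The alpha subunits shape the outer rings and control entry to the barrel. Psma3 had the highest difference of the 7, with 43132 units in WT+STZ and 50453 units in TG+STZ, or 0.15 ± 0.20. Psma4 had the lowest, with 13838 and 14935 units, or 0.028 ± 0.14. Its probes stood at 0.009 and 0.046. Between these, Psma7 stood at 0.12, Psma6 and Psma2 at 0.11 and 0.10, Psma5 at 0.090 and Psma1 at 0.040. All 7 had a higher signal on the TG+STZ array, and neighbours in this order differed by less than the scanner error.

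The beta subunits hold the cutting sites. Psmb5, the chymotrypsin-like subunit and the main target of proteasome inhibitor drugs, stood furthest from 0 of the core genes. Its signal was 63941 units in WT+STZ and 76035 units in TG+STZ, a scaled difference of 0.19 ± 0.14. Both of its probes were higher on the TG+STZ array, the bright one by 0.16 (106393 and 125534 units) and the dim one by 0.23 (21488 and 26536 units). Psmb6, the caspase-like subunit, read 55672 and 60646 units, or 0.045 ± 0.20, the smallest difference in the beta ring. Psmb7, the trypsin-like subunit, read 14823 and 16793 units, or 0.10 ± 0.20. The 3 catalytic genes thus spanned 0.045 to 0.19, a range inside the error of a single-probe gene.

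The noncatalytic beta genes lay close to each other. Psmb1, Psmb3, Psmb2 and Psmb4 stood at 0.10, 0.11, 0.12 and 0.12, with an SD of 0.0068 over the 4 genes. This closeness depended on the processing. With normexp background correction the same genes stood at 0.078, 0.091, 0.13 and 0.13. Psmb2 was the dimmest core gene, at 2315 and 2650 units, and Psmb4 read 57157 and 65493 units. Relative to the curve of all genes on signal (described with the comparison of particles), Psmb2 stood at 0.10 and Psmb1, Psmb3 and Psmb4 at 0.059, 0.065 and 0.072. The SD over all 14 core genes was 0.043, against 0.18 over the 4727 genes in the signal range of both particles.

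The ATPase ring of the 19S base unfolds substrates and threads them into the core. All 6 ATPase genes lay above 0, with a median of 0.062. Psmc6 had the highest difference, at 7521 and 8602 units or 0.12 ± 0.20, and Psmc3 the lowest, at 54715 and 59153 units or 0.037 ± 0.14. Psmc4, Psmc1, Psmc5 and Psmc2 stood at 0.081, 0.070, 0.055 and 0.050. The SD over the ring was 0.028, and no ATPase gene exceeded its error.

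The other 19S genes were more mixed, with 8 of 11 above 0 and an SD of 0.073. Psmd14, the lid enzyme that cuts ubiquitin chains from substrates, was highest at 2815 and 3352 units, or 0.17 ± 0.20. Psmd1, a large scaffold of the base, followed at 20435 and 24135 units, or 0.16 ± 0.20. Psmd11, a lid subunit, was lowest at 6272 and 6521 units, or -0.022 ± 0.20. The lid genes Psmd7 and Psmd8 also lay below 0, at -0.016 and -0.014. For these 3 genes the unscaled signal was higher in TG+STZ, and the values below 0 arise on scaling, since the 75th percentile was 1933 units in WT+STZ and 2042 units in TG+STZ.

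Further members of the base and lid lay between these. Psmd2, the other large base scaffold, stood at 0.046 and Psmd4, a ubiquitin receptor, at 0.0022. The lid genes Psmd13, Psmd3 and Psmd6 stood at 0.13, 0.074 and 0.071. Psmd12, also of the lid, stood at 0.0015, from probes at -0.058 and 0.061. All 9 genes of the base lay above 0, with a median of 0.055, and 5 of the 8 lid genes did, with a median of 0.036.

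Chaperones and activators surround the particles. The base chaperones Psmd5, Psmd9 and Psmd10 help the ATPase ring to assemble and leave before the particle is finished. Psmd10, also called gankyrin, had the highest difference of all 38 genes, at 1613 and 1925 units or 0.22 ± 0.14, and its probes stood at 0.13 and 0.30. Psmd9 had the lowest, at 1674 and 1657 units or -0.12 ± 0.14, and its probes stood at -0.029 and -0.21. It was the only measured gene of the 38 with a lower unscaled signal on the TG+STZ array. Psmd5 stood at 0.046.

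The activators open the core without using ATP. Psme1 and Psme2 encode the PA28 activator of the cytoplasm and are induced by interferon. Psme1 stood at -0.053 and Psme2 at 0.021 ± 0.14 (16149 and 17450 units). Psme3, the nuclear PA28 form, stood at 0.059 and Psme4, which encodes PA200, at 0.075 ± 0.14 (1193 and 1346 units). The tissue-restricted core genes were not well above background on either array. Psma8, the testis alpha subunit, read 2.15 and 4.55 units, and Psmb11, the thymus beta subunit, read 7.99 and 3.58 units, so neither has a fold. Psmb11 lies beside Psmb5 in gene order, with 0 coding genes between them.

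**Figure D2:**
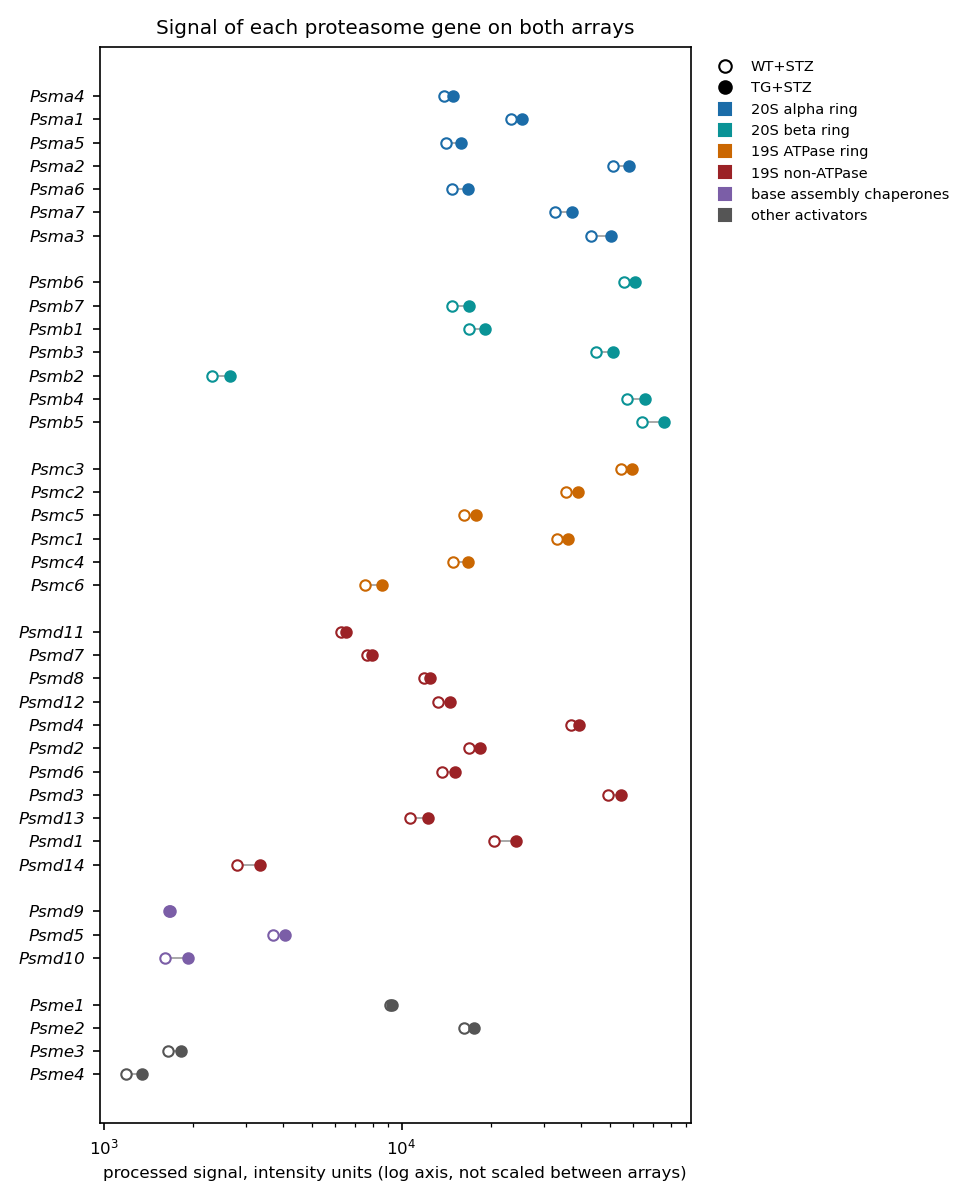
Processed signal of each measured proteasome gene in intensity units on a log axis, with open circles for the WT+STZ array and filled circles for the TG+STZ array, before scaling between arrays. By the plain mean of probe signals Psmb5 is brightest at 63941 and 76035 units, and Psme4 is dimmest at 1193 and 1346 units. By the averaged log2 signal Psmb4 is brightest, at the 97.9th percentile of measured genes against the 97.5th for Psmb5.

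The 2 particles were then set side by side. The core median exceeded that of the regulatory particle by 0.050, and the difference of their means was 0.042. Of the 14 core genes 11 lay above the regulatory median, and 13 of the 17 regulatory genes lay below the core median. The groups overlapped, with Psma1, Psmb6 and Psma4 near the bottom of the core and Psmd14, Psmd1 and Psmd13 near the top of the 19S genes. The scanner error carried over to a difference of group means, with genes taken as independent, was 0.070, and both gaps were smaller than it. The SD over the core genes was 0.043 and over the 19S genes 0.060, well below the stated error of 0.20 of a single-probe gene. The 0.070 therefore does not measure the scatter between these genes and cannot decide whether the particles differ. No test of the gap was possible with 1 array per group.

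By signal, the core genes had a median of 27991 units in WT+STZ and 31361 units in TG+STZ, and the 19S genes 14943 and 16688 units. The core genes ran from 2315 to 63941 units and the 19S genes from 2815 to 54715 units on the WT+STZ array, so the ranges overlapped. These signals give no order of abundance, since probes bind with different strength. The probes of Psmd12 differed by 13.5 times on the WT+STZ array (24619 and 1820 units), and those of Psmb5 by 4.95 times. The median signal of the 38 genes lay at the 91.7th percentile of measured genes.

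The tilt of the arrays with signal was measured over all genes. The median difference was -0.047 for the 3233 genes under 100 units, 0.018 for the 5560 genes from 1000 to 10000 units and 0.046 for the 1786 genes from 10000 to 100000 units. A smooth curve of difference on signal over all genes stood at 0.045 at the median core gene and 0.043 at the median 19S gene. Above this curve the core genes had a median of 0.061, with 11 of 14 above it, and the 19S genes 0.011, with 11 of 17 above it. The core genes below the curve were Psma4, Psma1 and Psmb6. Quantile normalization, which also removes such a tilt, likewise left 11 of 14 core genes and 10 of 17 19S genes above 0. Over all genes, 50.5% lay above the curve and 48.9% above 0 after quantile normalization. The gap between the particles was 0.050 and 0.047 in the 2 settings.

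**Figure D3:**
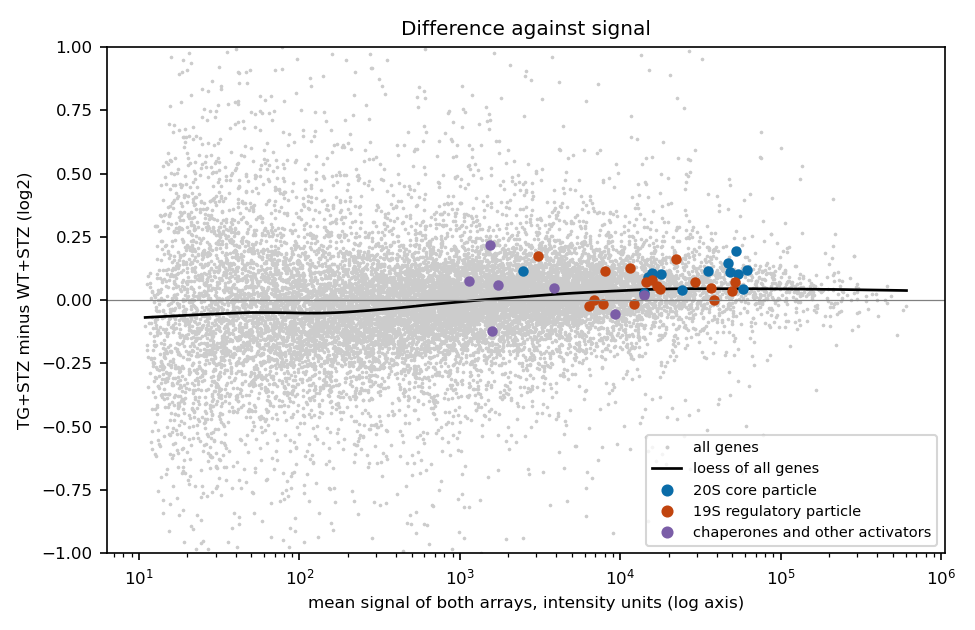
Difference (log2) of every measured gene against its mean signal over both arrays in intensity units on a log axis, with the loess curve of all genes as a line and proteasome genes as coloured points. The vertical axis is limited to differences of at most 1. The curve lies between 0.042 and 0.046 at 13 core genes and at 0.014 at the dimmer Psmb2, and 11 of the 14 core genes are above it.

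Other large complexes gave a comparison. The 78 measured cytosolic ribosomal protein genes had a median difference of 0.035, with 61 above 0, and the 74 mitochondrial ribosomal protein genes had a median of 0.052, with 64 above 0. The spread of the cytosolic family, an SD of 0.14, was wider than that of the core at 0.043. The extremes of the family were Rpl3l at 0.92 and Rpl14 at -0.59. Its quartiles were 0.0068 and 0.065, and those of the core 0.093 and 0.12, so the SD of the family rests partly on its extremes. Relative to the curve on signal, the cytosolic family stood at -0.0054, the mitochondrial family at 0.026 and the core at 0.061. The 19S genes stood at 0.011 on that scale. No test of a difference between families was made.

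**Figure D4:**
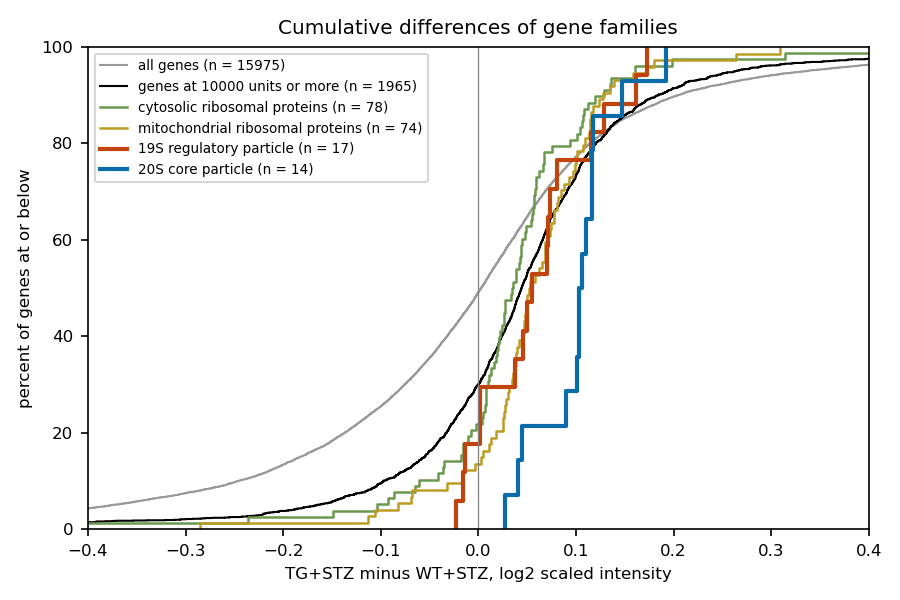
Cumulative percent of genes at or below each difference (TG+STZ minus WT+STZ, log2) for the core and regulatory particles, both ribosomal protein families, genes at 10000 units or more and all genes. The quartiles of the core are 0.093 and 0.12, those of the 19S genes 0.0022 and 0.081, and those of the mitochondrial family 0.028 and 0.099.

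The immunoproteasome genes stood nearer to 0 or below it. Psmb8 read 1807 and 1831 units, or -0.059 ± 0.20, and Psmb9 read 1631 and 1678 units, or -0.038 ± 0.20. Psmb10 read 8199 and 8681 units, or 0.0037 ± 0.20. Their constitutive counterparts Psmb5, Psmb6 and Psmb7 all lay above these 3 values. On the same arrays 17 of 18 measured interferon response genes lay below 0, with a median of -0.50, summed signals of 20177 and 15895 units and Oas2 furthest at -1.11. Their part in the values of Psmb8, Psmb9, Psme1 and Psme2 was not tested.

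Further genes of the pathway, from lists of assembly factors, partners, regulators and ubiquitin genes, were set beside the subunits. Of 39 measured genes, which include the 3 immunoproteasome genes, 26 lay above 0 and none reached 1.5-fold. Of all measured genes 50.9% lay above 0 and 3.66% reached 1.5-fold. The share above 0 was 64.5% in the signal range of both particles and 70.0% at 10000 units or more. The 5 chaperones of core assembly all lay above 0, with a median of 0.095. Pomp, which completes the assembly of the core, stood at 0.10 ± 0.14, Psmg1 at 0.098 ± 0.14 and Psmg3 at 0.0022. The 19S subunits that lack the family name also lay above 0, with Adrm1, a ubiquitin receptor, at 0.15 and Sem1 at 0.061.

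Enzymes and partners of the particle varied more. Usp14, a deubiquitinase bound to the 19S particle, stood at 0.14 ± 0.14 and Uchl5, another, at 0.013. Akirin2, which helps to import proteasomes into the nucleus, stood at 0.25 ± 0.20 from 1 probe. After normexp background correction Akirin2 stood at 0.18, inside that error. Ecpas, an adaptor of the proteasome, was lowest in its list at -0.14. Of the ubiquitin genes all 4 lay above 0. Their median was 0.089. Among the 10 measured genes of ubiquitin activation and shuttling 6 lay above 0, Vcp stood at 0.135 and Ubqln4 was lowest at -0.12.

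Genes that regulate proteasome gene transcription had mixed values. Nfe2l1, which encodes the factor that raises proteasome genes when the proteasome is inhibited, read 315 and 336 units, or 0.014 ± 0.20. Of the 9 genes in that list 6 lay below 0, with a median of -0.030. Nfe2l2, the related oxidant response factor, stood at -0.077, and Ddi2 and Ngly1, whose products process Nfe2l1, at -0.080 and -0.030. Nfyb, a subunit of the CCAAT-binding factor, was lowest at -0.18 ± 0.12, from 3 probes between -0.21 and -0.11. Foxo4 was highest at 0.23 ± 0.22 but very dim, at 19.6 and 24.3 units, and stood at -0.16 after normexp background correction.

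Promoter sequences were compared to see what the genes share beside their names. RefSeq windows of GRCm38.p6, from 250 bases before to 50 after the start of transcription, were at hand for 33 of the 40 genes. The motifs TGACNNNGC, CCAAT and CGGAAG were searched on both strands. TGACNNNGC is the core of the antioxidant response element that Nfe2l1 and Nfe2l2 bind, CCAAT is bound by NF-Y, and CGGAAG is a core bound by ETS factors. No match of 1 motif overlapped a match of another in these windows.

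CGGAAG was unevenly held. It was found in 20 of the 33 genes (60.6%), against 18.8% of all 27025 genes with a window, 29.3% of the measured genes and 37.1% of those at 10000 units or more. Within the set it was in 13 of 14 genes of the 19S particle and in 4 of 11 core genes. The 19S gene without it was Psmc5. TGACNNNGC was in 6 of 33 genes (18.2%), against 14.0% of all genes, 16.3% of measured genes and 16.7% of those at 10000 units or more. CCAAT was in 13 of 33 (39.4%), against 41.1%, 42.3% and 44.5% in the same order. TGACNNNGC was held by Psmb5 and Psmb6 of the core, Psmc6 and Psmd12 of the 19S particle, and by Psmd9 and Psme4.

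The windows printed are those of the catalytic genes Psmb5 and Psmb6, which carry TGACNNNGC and had the largest and smallest differences of the beta ring, and of the genes with the lowest core, highest 19S and lowest 19S difference. Capitals mark matches of the 3 motifs on either strand, and each sequence runs 5′ to 3′ along the gene.
Psmb5, chr14:54617946-54618245, minus strand: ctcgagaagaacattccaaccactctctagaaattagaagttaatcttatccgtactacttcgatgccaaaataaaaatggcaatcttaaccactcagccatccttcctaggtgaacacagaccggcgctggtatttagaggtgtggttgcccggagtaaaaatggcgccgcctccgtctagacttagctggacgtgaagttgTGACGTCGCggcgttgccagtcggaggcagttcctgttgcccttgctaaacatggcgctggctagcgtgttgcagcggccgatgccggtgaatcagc
Psmb6, chr11:70525107-70525406, plus strand: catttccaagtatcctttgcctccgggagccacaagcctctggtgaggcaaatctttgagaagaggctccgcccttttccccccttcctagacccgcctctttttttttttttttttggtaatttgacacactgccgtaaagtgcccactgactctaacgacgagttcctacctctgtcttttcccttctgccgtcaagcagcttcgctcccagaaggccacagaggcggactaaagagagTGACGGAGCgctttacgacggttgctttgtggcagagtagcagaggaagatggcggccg
Psma4, chr9:54950609-54950908, plus strand: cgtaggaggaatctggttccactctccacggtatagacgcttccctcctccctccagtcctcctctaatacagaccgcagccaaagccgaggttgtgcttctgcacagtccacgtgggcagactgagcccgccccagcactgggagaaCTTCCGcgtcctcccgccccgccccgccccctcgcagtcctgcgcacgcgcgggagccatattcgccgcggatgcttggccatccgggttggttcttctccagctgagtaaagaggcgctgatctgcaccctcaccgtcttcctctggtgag
Psmd14, chr2:61711444-61711743, plus strand: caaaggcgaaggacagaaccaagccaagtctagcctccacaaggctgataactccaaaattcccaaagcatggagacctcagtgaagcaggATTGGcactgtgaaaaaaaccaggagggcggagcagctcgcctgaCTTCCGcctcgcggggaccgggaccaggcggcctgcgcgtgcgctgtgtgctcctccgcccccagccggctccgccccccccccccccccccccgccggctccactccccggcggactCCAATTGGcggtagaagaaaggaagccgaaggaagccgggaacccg
Psmd11, chr11:80428365-80428664, plus strand: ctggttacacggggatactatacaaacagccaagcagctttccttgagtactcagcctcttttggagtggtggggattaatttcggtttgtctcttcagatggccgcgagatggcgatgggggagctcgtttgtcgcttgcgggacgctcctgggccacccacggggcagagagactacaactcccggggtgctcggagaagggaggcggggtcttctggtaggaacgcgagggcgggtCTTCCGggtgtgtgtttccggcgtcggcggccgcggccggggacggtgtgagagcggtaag

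In Psmb5 and Psmb6 the marked run is TGACNNNGC. In Psma4 and Psmd11 it is CGGAAG read on the other strand, and Psmd14 carries both CGGAAG and CCAAT. In Psmd14 a CCAATTGG run holds CCAAT on both strands. Measured genes with CGGAAG had a median difference of 0.071 (n = 19) and those without it 0.055 (n = 13). For TGACNNNGC the medians were 0.060 (n = 6) and 0.071 (n = 26), and for CCAAT 0.10 (n = 12) and 0.051 (n = 20). A match describes letters in the window only, and whether a factor binds there was not measured.

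The tissue was checked by its markers. All 16 podocyte markers were well above background on both arrays, and 10 of them lay below 0, with a median of -0.036. Of the endothelial markers 11 of 12 and of the distal nephron markers 10 of 12 lay below 0, with medians of -0.11 and -0.16. Proximal tubule genes were present as well, with Lrp2, which encodes megalin, at 166517 and 171980 units. The 16 markers of the proximal tubule had median signals of 108887 and 112192 units, against 1368 and 1320 units for podocyte markers. Probes bind with different strength, but the tubule markers were much the brighter, so the proteasome values come from mixed tissue. In such RNA more cells of a type and more transcript per cell cannot be told apart. Fat cell markers (6 of 6 measured of 10, summed signals 12396 and 18140 units) and fibroblast markers (9 of 10, 22994 and 30802 units) stood above 0, with medians of 2.06 and 0.50, and leukocyte markers below it (13 of 13, 26181 and 25266 units). The fat markers Adipoq, Plin1, Ucp1 and Lep were not well above background on both arrays. Their part in the proteasome values was not tested. Sirt1 itself stood at 0.10 ± 0.20 (2625 and 2977 units), within the error.

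**Figure D5:**
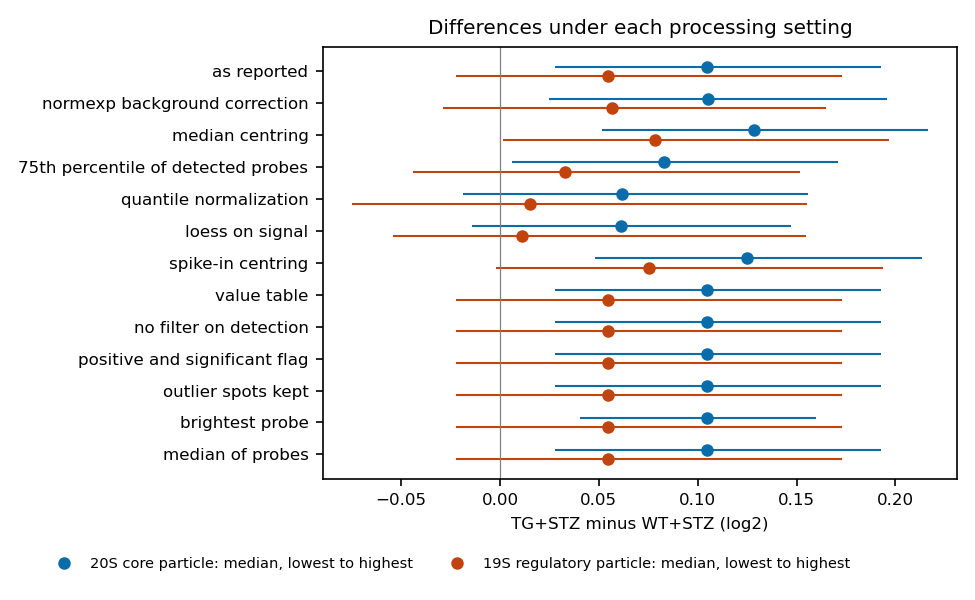
Median (point) and range (line) of the differences of the core and 19S genes under each processing setting, in log2 units of TG+STZ minus WT+STZ. Centring on another value shifts all genes alike and cannot change the gap between the medians, which was 0.049 under normexp, 0.047 under quantile normalization and 0.050 under loess. The medians lie between 0.061 and 0.13 for the core and between 0.011 and 0.079 for the 19S genes.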

How the data were processed

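The 2 one-colour (Cy3) Agilent mouse arrays hold 1 sample per group. The deposited scanner tables give each spot's processed signal as intensity on a linear scale, with an error and flags, and per the file headers the authors used version 10.7.1.1 of Agilent Feature Extraction (the submitters' processing notes name 10.3.1.1). The deposited value table held the same intensity at all 44397 spots.

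Control spots and 177 outlier spots were left out. From the deposited intensity a log2 value was taken, and the log2 of the array's 75th percentile over gene spots was subtracted. Spots of a probe were averaged, then probes of a gene that were well above background on over 50% of spots of both arrays. Differences and percentiles come from averaged log2 values, and signals in units are plain means of the unscaled intensities. Accessions were matched to RefSeq symbols of GRCm38.p6, which named 26410 of 39426 probes. The members and lists were chosen with earlier results of these data known. Every member may be named, and of other lists the extremes, some of which are not reported here. Loess used a span of 0.3 and normexp an offset of 50, on median spot and background signals. The class at 10000 units, the motifs, and the genes Psmg1, Vcp, Nfe2l1, Nfe2l2, Ddi2, Ngly1, Lrp2 and Sirt1 fall outside that rule and were chosen after values were seen. The steps were tested on simulated data that had no tilt with signal. That check was too coarse to judge differences as small as the core median. R 4.3.3 with limma 3.58.1 served for normexp, and Python 3.11.15 with statsmodels 0.14.6 and pandas 2.3.3 for the rest. There were 12 alternative settings.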

Additional observations from a re-analysis of the deposited data

How the results depend on the processing

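With 1 array per group no replicate could be left out. No paired analysis was possible because each group has a single array. The median over the measured proteasome genes was 0.073 and became 0.034 under quantile normalization and 0.034 under loess on signal, the settings that remove the tilt of all genes with signal. The count of genes past 1.5-fold was 0 and became 2 with no filter on detection (Psma8 and Psmb11) and 1 with the positive and significant flag, all of genes not well above background. Genes above 0 numbered 25 under quantile normalization, 26 under loess and 36 under median centring, against 33. The core median stayed above 0 in all 12 other settings and ran from 0.061 to 0.13. It did not change from 0.10 with the value table, the settings of detection and outlier spots, or the other ways to combine probes. Its lead over the 19S median was 0.049 under normexp, 0.047 under quantile normalization and 0.050 under loess. The other centrings and the value table could not change that lead. For single proteasome genes none of 456 values moved beyond the scanner error. Most of the differences were themselves smaller than that error, so a change of sign could pass unseen. Psma1, for example, went from 0.040 to -0.019 under quantile normalization. Some settings also left nearly all values as they were. The dim pathway gene Foxo4 moved from 0.23 to -0.16 under normexp. Dim genes are limited by signal over background.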
